A study of Mus musculus with 10 samples.

Results

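The Nr4a orphan nuclear receptors *Nr4a1*, *Nr4a2* and *Nr4a3* were examined in the mouse hippocampus before and after pilocarpine (PILO)-induced status epilepticus (SE), with or without levetiracetam (LEV), an antiseizure drug that binds the synaptic vesicle protein SV2A. The 3 genes were taken by their symbols from a table of 15900 genes, and all 3 were found. Cap analysis of gene expression (CAGE), which sequences the capped 5′ ends of transcripts, had been applied to whole hippocampi of 10 male ICR (CD-1) mice aged 9 to 10 weeks, which formed 5 groups of 2. Pre-SE mice are labelled untreated, and the methods of the study describe saline in place of PILO for control mice. The SE 6 h and SE 2 days mice received PILO and were sampled 6 h or 2 days after SE, and the SE + LEV 6 h and SE + LEV 2 days mice also received oral LEV, 1 time and 5 times before sampling, respectively. Methyl scopolamine was given before PILO and diazepam was given to end SE, so that comparisons with pre-SE mice include these agents, and a vehicle for the groups without LEV is not named in the sources used here.

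NR4A proteins bind DNA as transcription factors of the nuclear receptor superfamily, but no hormone is known to be required for their activity, and their output is therefore set largely by how much of each protein is made. Their genes are immediate early genes, which neurons transcribe within minutes of synaptic activity and calcium entry through CREB, its CRTC coactivators, MEF2 and SRF. *Nr4a1* (NUR77) is linked to metabolism and to the distribution of dendritic spines, *Nr4a2* (NURR1) to the identity of midbrain dopamine neurons and to hippocampal memory, and *Nr4a3* (NOR-1) to the same early response, and NR4A1 and NR4A2, but not NR4A3, can pair with retinoid X receptors.

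In the mm9 annotation (GENCODE vM1), *Nr4a1* lies on the plus strand of chromosome 15 (101097277 to 101105223) with 1 annotated transcript. *Nr4a2* lies on the minus strand of chromosome 2 (56959241 to 56976414) with 6 transcripts from 4 starts spread over 10931 bases, and *Nr4a3* on the plus strand of chromosome 4 (48058025 to 48099319) with 4 transcripts from 4 starts spread over 6095 bases. No other annotated gene overlapped any of the 3, and the nearest was 2085 bases from *Nr4a2*. The deposited values give 1 number per gene, so the use of different starts could not be followed.

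The promoter windows are shown because the values of the 3 genes were all higher in SE 6 h mice without overlap and the genes belong to a family known for CREB-driven transcription. The windows run from 250 bases before the RefSeq start (GRCm38.p6) to that start, and each was placed in mm9 by its single exact match. Capitals mark TGACG, the half-site of the cyclic AMP response element, on either strand, and for *Nr4a1* the longer letters TGCGTCA, in which the half-site is read on the other strand. The sequences are written 5′ to 3′ on the strand of the gene, at chr15:101097027-101097276 for *Nr4a1* and at chr2:56976415-56976664 for *Nr4a2*. For *Nr4a3*, 30 bases at chr4:48057956-48057985 are shown, since 152 of its 250 bases lie in an exon of the mm9 annotation.

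*Nr4a1* promoter: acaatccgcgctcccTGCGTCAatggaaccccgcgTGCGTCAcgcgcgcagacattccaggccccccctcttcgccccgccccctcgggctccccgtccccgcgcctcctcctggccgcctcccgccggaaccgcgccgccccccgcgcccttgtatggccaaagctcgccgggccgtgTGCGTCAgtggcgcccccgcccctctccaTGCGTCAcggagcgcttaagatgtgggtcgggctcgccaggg
*Nr4a2* promoter: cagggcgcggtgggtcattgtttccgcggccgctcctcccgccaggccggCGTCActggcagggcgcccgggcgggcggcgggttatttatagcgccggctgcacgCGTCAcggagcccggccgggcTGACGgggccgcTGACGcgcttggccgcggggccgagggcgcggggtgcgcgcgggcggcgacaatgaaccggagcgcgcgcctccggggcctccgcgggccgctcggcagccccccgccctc
*Nr4a3* promoter: tcccatgtCGTCAcatTGACGtctcgcatt

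Each of the 3 windows held 4 TGACG half-sites, where 17.8% of all 32851 RefSeq promoter windows of the same length held at least 1 and 0.137% held at least 4. In *Nr4a1*, all 4 lay within copies of TGCGTCA, with half-sites 40 to 233 bases before the start, and 1.75% of all windows held at least 1 copy of TGCGTCA. The full palindrome TGACGTCA was in none of the 3 windows and in 1.55% of all windows. TATAAA, sought on either strand like the other letters, was found in *Nr4a2* only among the 3 and in 12.4% of all windows. In *Nr4a2* it lay on the strand opposite to the gene, 164 bases before its start. The CArG box of SRF was in none of the 3 and in 1.47% of all windows. The windows of *Nr4a1*, *Nr4a2* and *Nr4a3* contained 74.4%, 80.0% and 63.6% G and C, against a median of 52.4%. These letters describe the windows and do not show which factor was bound.

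Values are CPM, the tags of a gene per 1000000 tags on all listed genes of the library. The tag counts could be recovered from the CPM values, with totals of 10540698 to 51710968 tags per library, and each Nr4a value rested on 320 to 27529 tags, so that counting error was at most 5.59% (1 divided by the square root of the tag count). Differences between groups (logFC) are differences of group means of log2(CPM + 0.1), tested with limma in 1 fit of all 10 libraries, with Benjamini-Hochberg adjustment over 15851 genes. A gene was called where its adjusted p was 0.05 or less. The p values measure the spread between the mice of a group, and with 2 mice against 2 an exact permutation test cannot go below a two-sided p of 0.333, so that the calls depend on the spread that limma shares across genes and groups. The SE + LEV 6 h replicate 2 library was the shallowest and stood apart from replicate 1 of its group, with lower values in 22 of 23 activity-regulated genes, against 42.4% of all genes.

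Before SE, the 3 genes were expressed at overlapping levels. *Nr4a1* measured 32.66 and 63.76 CPM in the 2 pre-SE mice, *Nr4a2* 41.28 and 99.19 CPM, and *Nr4a3* 50.28 and 58.21 CPM. Their pre-SE means lay at percentiles 69.5, 78.7 and 72.4 of the listed genes. A capped tag counts 1 transcript whatever its length, so these levels can be set side by side, and none of the 3 genes stood apart.

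At 6 h after SE, *Nr4a1* and *Nr4a2* were called higher than in pre-SE mice, and *Nr4a3* had higher values without overlap but did not pass the test. *Nr4a1* reached 882.96 and 355.06 CPM in SE 6 h replicates 1 and 2. *Nr4a2* reached 368.18 and 519.03 CPM in the same mice, and *Nr4a3* reached 203.12 and 142.66 CPM. For each gene the lower SE 6 h mouse exceeded the higher pre-SE mouse, which held for higher values in 18.6% of all genes tested. Replicate 1 had the higher value for *Nr4a1* and *Nr4a3* and replicate 2 for *Nr4a2*.

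*Nr4a1* rose 12.2-fold at 6 h (logFC 3.61, SE 0.62, 95% interval 2.23 to 4.99, limma adjusted p = 0.014). *Nr4a2* rose 6.82-fold (logFC 2.77, SE 0.54, 95% interval 1.58 to 3.96, limma adjusted p = 0.023). For *Nr4a3*, the estimate was 3.14-fold (logFC 1.65, SE 0.55, 95% interval 0.42 to 2.88) and did not pass the test (limma adjusted p = 0.16). Thus 2 of the 3 genes were called higher, against 2.76% of all genes tested. The median logFC of all genes was −0.13 in this comparison, and after median-of-ratios rescaling, which set it near 0 (−0.005), the logFC of the 3 genes was 3.74, 2.90 and 1.78.

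The calls at 6 h depended on single mice. Without pre-SE replicate 1, the adjusted p was 0.10 for *Nr4a1* and 0.16 for *Nr4a2* (limma), without SE 6 h replicate 1 it was 0.09 and 0.077, and without SE 6 h replicate 2 it was 0.036 and 0.18, while *Nr4a3* passed in the fit of only the groups compared (0.03), with DESeq2 (0.016) and without either SE + LEV 6 h mouse (0.018). In whole tissue, fewer cells of a type and less RNA per cell cannot be told apart, and which cells made the Nr4a transcripts was not tested.

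**Figure D1:**
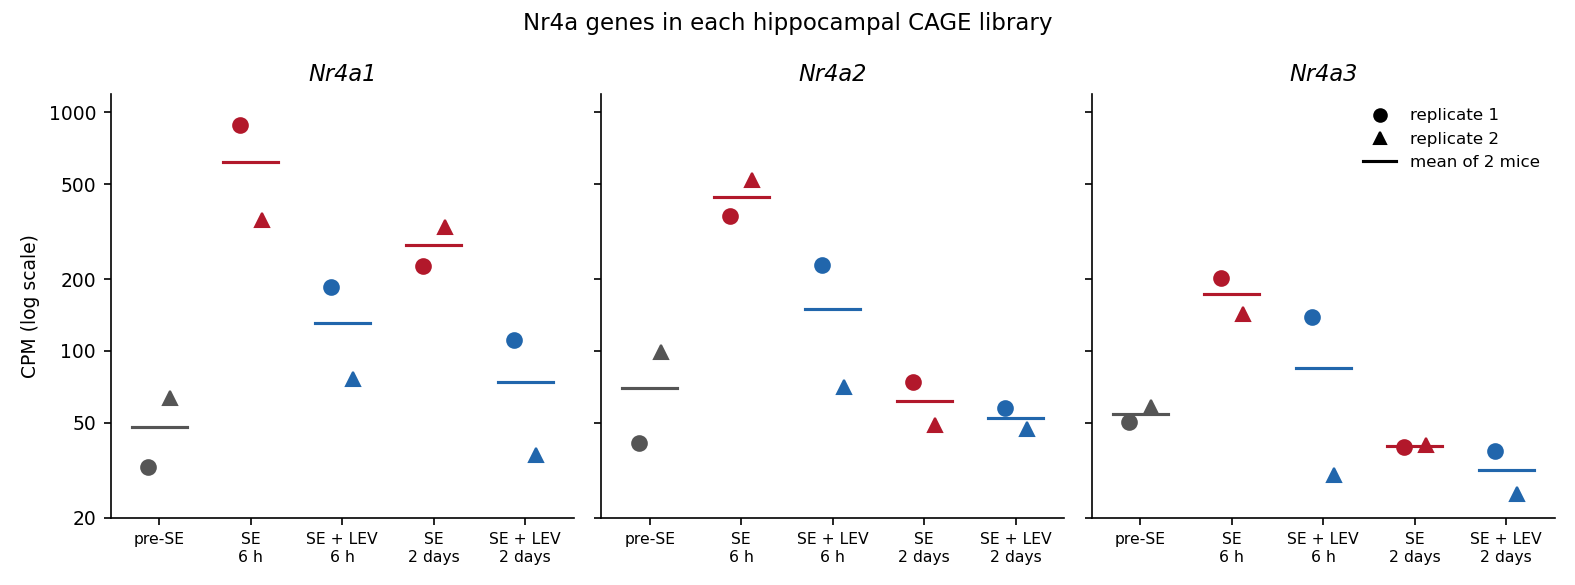
CPM of *Nr4a1*, *Nr4a2* and *Nr4a3* in each of the 10 libraries on a log axis, with circles for replicate 1, triangles for replicate 2 and lines for the mean of the 2 mice of a group (grey, pre-SE, red, SE without LEV, blue, SE + LEV). All 3 genes were high in both SE 6 h mice, and *Nr4a1* alone was above its pre-SE values in both SE 2 days mice.

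At 2 days after SE, only *Nr4a1* among the 3 genes was called against pre-SE mice. *Nr4a1* measured 226.58 and 330.85 CPM in SE 2 days replicates 1 and 2, above the pre-SE mice, as 26.3% of all genes were without overlap, and below the SE 6 h mice. *Nr4a2* had returned to 73.99 and 48.96 CPM, inside the pre-SE range, and *Nr4a3* measured 39.47 and 40.36 CPM, below the pre-SE mice, as 25.6% of all genes were. The 2 SE 2 days mice were closest to each other for *Nr4a3* and farthest apart for *Nr4a1*, in CPM.

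*Nr4a1* was 5.99-fold higher in SE 2 days mice than in pre-SE mice (logFC 2.58, SE 0.62, 95% interval 1.20 to 3.96, limma adjusted p = 0.039), so that 1 of the 3 genes was called higher, against 5.07% of all genes tested. The logFC was −0.09 for *Nr4a2* (95% interval −1.28 to 1.10, limma adjusted p = 0.95) and −0.44 for *Nr4a3* (95% interval −1.67 to 0.79, limma adjusted p = 0.73). These intervals leave room for changes of either sign. The *Nr4a1* call was lost with edgeR's quasi-likelihood test (adjusted p = 0.06), without the mean-variance trend of limma (0.069), and without pre-SE replicate 1 (0.25), pre-SE replicate 2 (0.062), SE 2 days replicate 1 (0.082) or SE 2 days replicate 2 (0.29).

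From 6 h to 2 days, the values of all 3 genes were lower in mice without LEV, and none of the groups overlapped, which held for lower values in 20.1% of all genes. *Nr4a2* fell 7.25-fold (logFC −2.86, SE 0.54, 95% interval −4.05 to −1.67, limma adjusted p = 0.017), which made 1 of 3 genes called lower, against 1.11% of all genes. *Nr4a3* was 4.26-fold lower (logFC −2.09, SE 0.55, limma adjusted p = 0.067) and *Nr4a1* 2.04-fold lower (logFC −1.03, SE 0.62, limma adjusted p = 0.39), neither past the test. The *Nr4a2* call was lost when any 1 of the 4 mice was left out (adjusted p 0.073 to 0.13, limma), and *Nr4a3* passed in the fit of only the groups compared (0.0064), with DESeq2 (0.0014) and without either SE + LEV 6 h mouse (0.0081).

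With LEV, the change from 6 h to 2 days was smaller in estimate for each gene and none was called. The logFC in SE + LEV 2 days against SE + LEV 6 h mice was −0.89 for *Nr4a1* (limma adjusted p = 0.61), −1.29 for *Nr4a2* (0.37) and −1.07 for *Nr4a3* (0.48), against 0.0757% of all genes called lower. *Nr4a2*, whose groups did not overlap (14.6% of all genes, lower), had an unadjusted limma p of 0.0364 and was called by DESeq2 (adjusted p = 0.045), which called 626 of all genes, while edgeR called 0 of the 3. Without SE + LEV 6 h replicate 2, *Nr4a3* was called (logFC −2.17, limma adjusted p = 0.04).

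*Nr4a2* and *Nr4a3* also had the lowest estimates when the time difference was averaged over mice with and without LEV. *Nr4a2* was 4.21-fold lower at 2 days (logFC −2.07, SE 0.38, limma adjusted p = 0.008) and *Nr4a3* 2.99-fold lower (logFC −1.58, SE 0.39, limma adjusted p = 0.033), so that 2 of 3 genes were called lower, against 2.28% of all genes. *Nr4a1* had a logFC of −0.96 (SE 0.44, limma adjusted p = 0.19). *Nr4a2* was called under all 21 alternatives (adjusted p at most 0.04) and *Nr4a3* under 14, losing its call without the trend (0.057) and without SE 6 h replicate 1 (0.11) or 2 (0.059), SE 2 days replicate 1 (0.095) or 2 (0.093), or SE + LEV 2 days replicate 1 (0.055) or 2 (0.054). By an exact permutation of the time labels within treatments, whose smallest p over 36 arrangements is 0.056, the p was 0.056 for *Nr4a2*, 0.11 for *Nr4a3* and 0.17 for *Nr4a1*.

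LEV was compared with no LEV at each time, and the SE mice of these comparisons are those that were set against pre-SE mice above. In SE + LEV 6 h mice, the 3 genes were all lower than in SE 6 h mice without overlap of the groups, but none was called. *Nr4a1* measured 184.84 and 76.18 CPM in SE + LEV 6 h replicates 1 and 2. *Nr4a2* measured 228.93 and 70.87 CPM in these mice, and *Nr4a3* measured 139.48 and 30.36 CPM. Replicate 2 was the lower mouse for each gene. For *Nr4a3*, replicate 1 nearly reached the SE 6 h mice, whereas replicate 2 was below both pre-SE mice.

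The estimates in SE + LEV 6 h mice against SE 6 h mice were 4.72-fold lower for *Nr4a1* (logFC −2.24, 95% interval −3.62 to −0.86, limma adjusted p = 0.62), 3.43-fold lower for *Nr4a2* (logFC −1.78, 95% interval −2.97 to −0.59, limma adjusted p = 0.70) and 2.61-fold lower for *Nr4a3* (logFC −1.39, 95% interval −2.61 to −0.16, limma adjusted p = 1.0). Lower values without overlap were found in 13.4% of all genes. The unadjusted limma p values of the 3 genes were 0.0047, 0.00758 and 0.0308, and 3.42% of all genes were lower at an unadjusted p under 0.05. In this comparison limma called 2 of the 15851 genes (0.0126%), *Zfp184* (logFC −3.08) and *Magoh* (logFC −2.05), which are no Nr4a genes and are named after their values were seen. Of the 3 genes, edgeR called 0 and DESeq2 called *Nr4a1* (adjusted p = 0.029), and over all genes edgeR called 0 and DESeq2 75.

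The size of these differences depended on single SE + LEV 6 h mice. Without replicate 2 of that group, the logFC was −1.60 for *Nr4a1*, −0.93 for *Nr4a2* and −0.29 for *Nr4a3*, and without replicate 1 it was −2.88, −2.62 and −2.48. With 2 mice a group, leaving out either moves the estimate equally in opposite directions, so this does not single out 1 library. Replicate 2 minus replicate 1 was −1.28, −1.69 and −2.2 on the log2 scale for *Nr4a1*, *Nr4a2* and *Nr4a3*, and the 23 activity-regulated genes had a median difference of −1.20 between the same libraries, beside 0.09 for all genes. The part of the shallow replicate 2 library in the result was not tested further.

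At 2 days, *Nr4a1* and *Nr4a3* were lower with LEV without overlap of the groups, but none of the 3 genes was called. *Nr4a1* measured 111.13 and 36.60 CPM in SE + LEV 2 days replicates 1 and 2, both below the SE 2 days mice. *Nr4a2* measured 57.61 and 47.03 CPM, overlapping the SE 2 days mice, and *Nr4a3* measured 37.95 and 25.22 CPM, both below them. Replicate 2 again had the lower value for each gene.

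The estimate for *Nr4a1* was 4.29-fold lower (logFC −2.10, SE 0.62, 95% interval −3.48 to −0.72, unadjusted p = 0.00683, limma adjusted p = 1.0), and its logFC was −1.30 without SE + LEV 2 days replicate 2 and −2.90 without replicate 1 of that group. The logFC was −0.21 for *Nr4a2* (95% interval −1.40 to 0.98) and −0.37 for *Nr4a3* (95% interval −1.60 to 0.86), each with a limma adjusted p of 1.0. None of the 3 genes was called by limma, edgeR or DESeq2, and over all genes limma called 0 (0.0%), edgeR 0 and DESeq2 4, with 1.39% of genes lower at an unadjusted limma p under 0.05. Values without overlap were lower for 2 of the 3 genes, against 12.2% of all genes.

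The LEV difference of *Nr4a1* was of similar size at both times, and its change between them was estimated at 0.14 (SE 0.88, 95% interval −1.81 to 2.09, limma adjusted p = 1.0). For *Nr4a2* and *Nr4a3* the corresponding estimates were 1.57 (SE 0.76, 95% interval −0.11 to 3.25) and 1.02 (SE 0.78, 95% interval −0.72 to 2.76), with limma adjusted p values of 1.0. A difference of the LEV effect between 6 h and 2 days was therefore not shown for any of the 3 genes. Over all genes, limma called 0 for this change (0.0%), edgeR 0 and DESeq2 3, and 0 of the 3 Nr4a genes had an unadjusted limma p under 0.05.

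Averaged over both times, *Nr4a1* was 4.5-fold lower with LEV (logFC −2.17, SE 0.44, unadjusted p = 0.000561, limma adjusted p = 0.27), *Nr4a2* had a logFC of −0.99 and *Nr4a3* of −0.88 (limma adjusted p = 0.92 for both). All 3 had an unadjusted p under 0.05 in the lower direction, as 3.63% of all genes did, and over all genes limma called 0 (0.0%), edgeR 0 and DESeq2 82. *Nr4a1* passed with DESeq2 (adjusted p = 0.00033) and without SE + LEV 2 days replicate 1 (0.05, limma), and by an exact permutation of the LEV labels within times the p was 0.056, the smallest it can give, for *Nr4a1* and *Nr4a3* and 0.11 for *Nr4a2*, or 0.11 to 0.13 after adjustment over the 6 exact tests of LEV and time.

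Against pre-SE mice, which are shared by all comparisons with pre-SE, none of the 3 genes was called in LEV-treated mice. At 6 h, the logFC was 1.38 for *Nr4a1* (limma adjusted p = 0.53), 0.99 for *Nr4a2* (0.59) and 0.27 for *Nr4a3* (0.89), against 0.315% of all genes called higher, and *Nr4a1* alone among the 3 had groups that did not overlap (17.0% of all genes, higher). At 2 days, it was 0.48 for *Nr4a1* (0.90), −0.30 for *Nr4a2* (0.94) and −0.80 for *Nr4a3* (0.75), against 2.83% of all genes called higher. At an unadjusted limma p under 0.05, 0 of the 3 genes differed from pre-SE mice at either time, and edgeR and DESeq2 called 0 as well. *Nr4a3* in SE + LEV 2 days mice was below both pre-SE mice without overlap, which held for 17.5% of all genes.

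**Figure D2:**
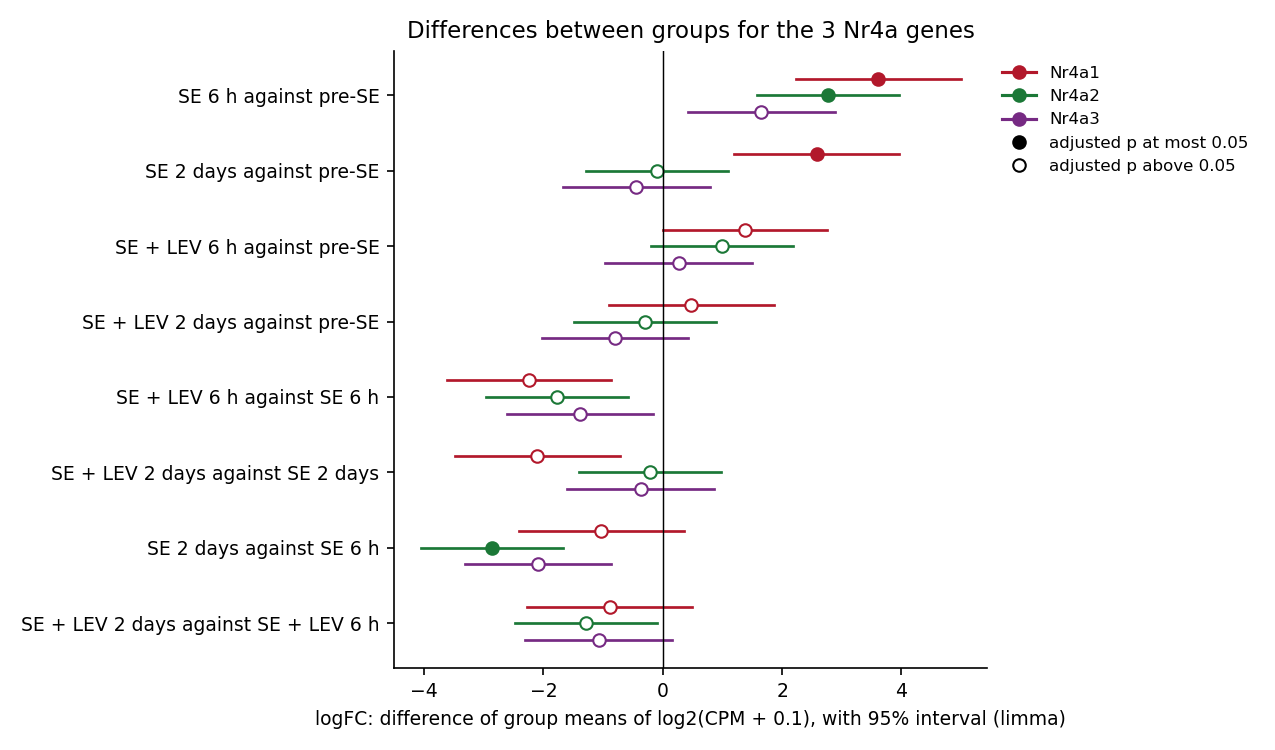
Differences between groups (logFC on the log2(CPM + 0.1) scale) with 95% intervals from limma for the 3 genes, filled where the adjusted p was at most 0.05. *Nr4a1* and *Nr4a2* were called at 6 h after SE, *Nr4a1* at 2 days, and *Nr4a2* in SE 2 days against SE 6 h mice, and the LEV estimates were below 0 for all 3 genes at both times.

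In order of the group means, *Nr4a1* was highest in SE 6 h mice (619 ± 373 CPM, SD, n = 2), followed by SE 2 days (279 ± 73.7), SE + LEV 6 h (131 ± 76.8), SE + LEV 2 days (73.9 ± 52.7) and pre-SE mice (48.2 ± 22.0). The SE 6 h, SE 2 days and SE + LEV 6 h groups did not overlap each other, whereas the SE + LEV 2 days group overlapped both the SE + LEV 6 h and the pre-SE groups. For *Nr4a2*, the SE 6 h mice (444 ± 107) stood above the SE + LEV 6 h mice (150 ± 112) without overlap, and the pre-SE (70.2 ± 40.9), SE 2 days (61.5 ± 17.7) and SE + LEV 2 days mice (52.3 ± 7.48) overlapped their neighbours. For *Nr4a3*, the order was SE 6 h (173 ± 42.8), SE + LEV 6 h (84.9 ± 77.2), pre-SE (54.2 ± 5.61), SE 2 days (39.9 ± 0.629) and SE + LEV 2 days (31.6 ± 9.0), of which the SE + LEV 6 h group overlapped each of the 3 lower groups, which did not overlap each other.

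The balance between the 3 transcripts differed between the groups. The log2 ratio of *Nr4a1* to *Nr4a2* was −0.34 and −0.64 before SE, 1.26 and −0.55 at 6 h and 1.61 and 2.75 at 2 days without LEV. The log2 ratio of *Nr4a1* to *Nr4a3* was −0.62 and 0.13 before SE and 2.52 and 3.03 at 2 days without LEV, and above 0 in all 8 mice after SE. Thus *Nr4a1* was the most abundant of the 3 transcripts in both SE 2 days mice, and in neither pre-SE mouse. The log2 ratio of *Nr4a2* to *Nr4a3* stayed between −0.28 and 1.86 over the 10 libraries. With 2 mice a group, a change of ratio against pre-SE mice cannot reach an exact permutation p below 0.333, and in the exact permutation tests of LEV and time on the ratios no p was below 0.11, or 0.26 after adjustment over 6 tests.

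The genes with the nearest profile to each Nr4a gene were found by the root mean square distance between log2(CPM + 0.1) values, each gene centred on its own mean, over the 10 libraries and 14219 genes with a mean of at least 1 CPM. For *Nr4a1* the nearest was *Egr1*, a zinc finger transcription factor and immediate early gene, at a distance of 0.28, followed by *Junb* (0.46), *Arc* (0.47), *Nfil3* (0.49) and *Egr4* (0.52), while the median over all genes was 1.56. JUNB is an AP-1 subunit, ARC a regulator of synaptic AMPA receptors, NFIL3 a basic leucine zipper repressor and EGR4 a relative of EGR1. *Egr1* measured 97.25 and 246.68 CPM before SE, 2258.58 and 1034.77 CPM at 6 h, and 608.43 and 1153.84 CPM at 2 days. With LEV it measured 834.85 and 169.15 CPM at 6 h and 337.42 and 105.15 CPM at 2 days. In each of the 5 groups, the mouse with the higher *Nr4a1* value also had the higher *Egr1* value, which the choice of *Egr1* by distance over these libraries favours. *Egr1* itself was not called at 6 h (logFC 3.30, limma adjusted p = 0.058) or 2 days (logFC 2.43, limma adjusted p = 0.11).

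*Nr4a2* and *Nr4a3* had other neighbours, and each was nearer to the other than to *Nr4a1*. Among the 5 nearest to *Nr4a2* were *Trmt61b* (0.43), *Spty2d1* (0.52), *Nr4a3* (0.53) and *Emd* (0.53), and among the 5 nearest to *Nr4a3* were *Cwc25* (0.40), *Siah2* (0.41), *Emd* (0.42) and *Ppargc1a* (0.43). *Nr4a3* lay at rank 4 in the list of *Nr4a2*, and *Nr4a2* at rank 30 in the list of *Nr4a3*. Both lay at a distance of 1.08 from *Nr4a1*, at ranks 258 (*Nr4a2*) and 251 (*Nr4a3*) in its list. *Nr4a1* lay at ranks 935 and 6170 in the lists of *Nr4a2* and *Nr4a3*, whose median distances were 1.35 and 1.11. Emerin (*Emd*) is a protein of the inner nuclear membrane, SIAH2 a ubiquitin ligase, and PGC-1α (*Ppargc1a*) a coactivator of nuclear receptors. The identifier listed as *Trmt61b* is annotated as a long noncoding RNA that overlaps *Spdya* on the other strand, so tags of these genes may be shared if strand was not used in the counting. *Egr1* and *Cwc25* overlap *Gm17507* and *Gm17413* on the other strand, with the same limit. *Emd* overlaps *Gm14686* on its own strand, so their tags may be shared even if strand was used. The 10 points come from the same libraries and share their depth, so this likeness is a description of these libraries.

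The neighbours divided by their values at 2 days as the Nr4a genes did. The 5 nearest to *Nr4a1* had logFC of 2.24 to 2.77 against pre-SE mice at 2 days, and *Junb*, *Arc* and *Nfil3* were called. *Trmt61b*, *Spty2d1* and *Emd*, near *Nr4a2*, had logFC of 2.18 to 3.16 at 6 h, all called, and of 0.19 to 0.38 at 2 days, none called by limma. Of the other genes named near *Nr4a3*, *Cwc25* was called at 6 h (logFC 2.23), and *Siah2* and *Ppargc1a* (1.28 each) were not. At 2 days the logFC of *Cwc25*, *Siah2* and *Ppargc1a* was 0.06, −0.11 and −0.79, none called by limma. Since the neighbours were chosen on these libraries, this is a description and not a test.

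**Figure D3:**
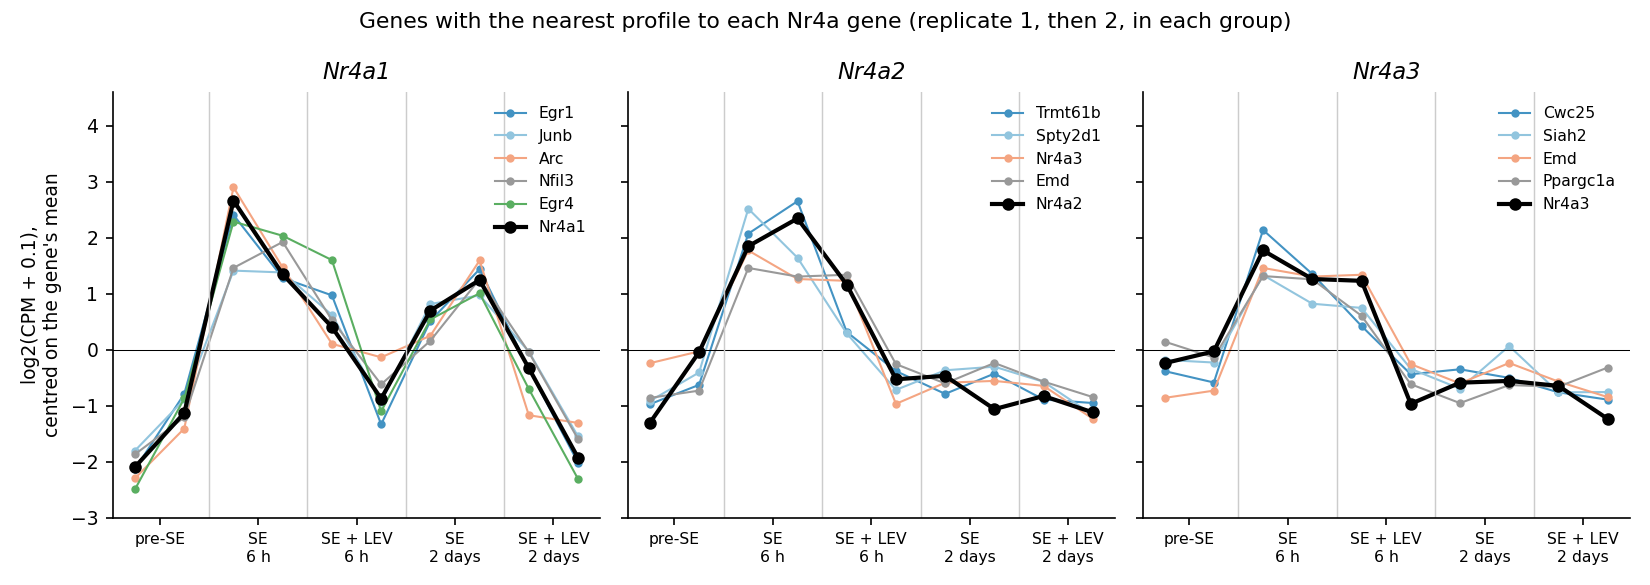
Centred log2(CPM + 0.1) values of each Nr4a gene (black) and of 4 or 5 of its nearest genes in the 10 libraries, with replicates 1 and 2 of each group side by side and lines that only guide the eye between libraries. *Nr4a1* and its neighbours lay above their own means in both SE 2 days mice, whereas *Nr4a2* and *Nr4a3* lay below their own means in all 4 libraries of 2 days.

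Other genes of the early response to neuronal activity gave the setting of these values. Of 23 activity-regulated genes, 19 were called higher and 0 lower at 6 h (median logFC 3.30), against 2.76% of all genes called higher. At 2 days, 14 were called higher and 0 lower (median logFC 2.45), against 5.07% of all genes called higher. The median logFC of all genes was −0.13 at 6 h and −0.03 at 2 days. The list was chosen with results of these data known and is no independent evidence of its direction. *Fos*, a subunit of AP-1, went from 4.0 and 9.98 CPM before SE to 276.28 and 227.69 CPM at 6 h and 72.88 and 85.64 CPM at 2 days. *Npas4*, a neuron-specific activity-dependent factor, rose by a logFC of 5.66 at 6 h (limma adjusted p = 0.0023) and 4.03 at 2 days (limma adjusted p = 0.005), and *Fosb* (6.22 and 3.79) and *Inhba*, a subunit of activin (6.69 and 4.58), were called at both times. Without pre-SE replicate 1 the count at 6 h was 12, and without SE 2 days replicate 2 the count at 2 days was 4.

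The logFC of *Nr4a1* lay within the range of these genes at both times. Those of *Nr4a2* and *Nr4a3* at 2 days, −0.09 and −0.44, were below all 23, of which *Per1*, a clock gene, was the lowest (−0.04), and their distance from the list was not tested. With LEV, 22 of the 23 genes were lower at 6 h (median logFC −1.55) and 23 of 23 at 2 days (median logFC −1.68). Groups did not overlap for 20 and 17 of them, against 13.4% and 12.2% of all genes, lower. None was called lower by limma or edgeR, and DESeq2 called 3 at 6 h and 4 at 2 days. Over all genes DESeq2 called 75 and 4, in either direction. *Nr4a1* (−2.24 and −2.10) had estimates below both medians, while *Nr4a2* (−1.78 and −0.21) was below the median at 6 h only and *Nr4a3* (−1.39 and −0.37) at neither time.

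**Figure D4:**
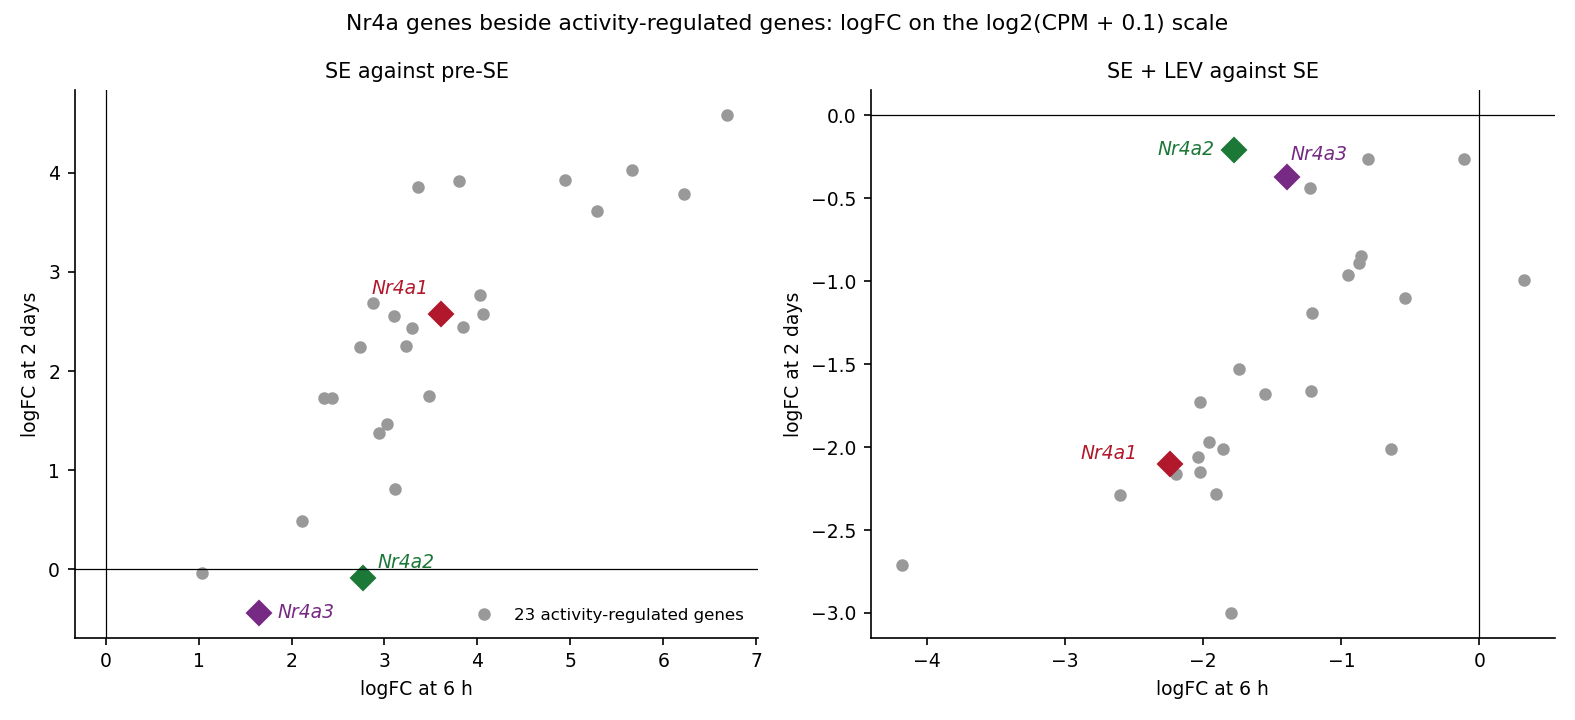
logFC at 6 h (horizontal) and at 2 days (vertical) of the 3 Nr4a genes (diamonds) and 23 activity-regulated genes (grey points), on the left for SE against pre-SE mice and on the right for SE + LEV against SE mice. *Nr4a1* lay among the grey points in both panels, and *Nr4a2* and *Nr4a3* lay lowest at 2 days on the left, where both times share the pre-SE mice.

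Genes that act with or on the Nr4a genes were not called by limma against pre-SE mice. Of all genes, 2.96% were called at 6 h and 5.66% at 2 days, in either direction. Counts of 0 in lists this short do not set these lists apart from all genes. Of the 3 retinoid X receptors, 0 were called at either time, and *Rxrg* had the largest difference, from 1.03 and 1.61 CPM before SE to 0.51 and 0.07 CPM at 6 h (logFC −2.11, limma adjusted p = 0.14). Of 8 nuclear receptor coregulators, 0 were called by limma, and *Ppargc1a* went from 9.55 and 7.83 CPM before SE to 21.62 and 20.76 CPM at 6 h (logFC 1.28, limma adjusted p = 0.14) and to 4.41 and 5.54 CPM at 2 days (logFC −0.79, limma adjusted p = 0.31). Its groups did not overlap in either comparison, above pre-SE at 6 h (18.6% of all genes) and below at 2 days (25.6%). Against SE 6 h mice *Ppargc1a* fell by 2.08 on the log2 scale in SE 2 days mice (limma adjusted p = 0.019). In that comparison 1.11% of all genes were called lower. Of 12 activators that work upstream of the Nr4a genes, among them *Creb1*, the CRTC and MEF2 genes and *Srf*, 0 were called, and *Srf* had the largest difference (logFC 1.36 at 6 h, limma adjusted p = 0.23). Under the alternatives, 1 coregulator was called at 6 h with DESeq2 and 1 activator was called lower at 2 days without SE 2 days replicate 1.

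Calls among other nuclear receptors were set beside those of all genes, 2.96% at 6 h and 5.66% at 2 days in either direction. With 29 listed genes or fewer, the counts below do not set a list apart. Of 42 other receptor genes, 29 were listed, and 1 was called higher at 2 days, *Rara*, a retinoic acid receptor, from 14.55 and 21.06 CPM before SE to 55.75 and 64.0 CPM (logFC 1.76, limma adjusted p = 0.045). At 6 h, 0 of the 29 were called, and the median logFC was −0.08. Of 5 listed genes that Nr4a2 is known to control in dopamine neurons, 0 were called. *Th*, which encodes the rate-limiting enzyme of dopamine synthesis, was low, at 0.31 and 0.25 CPM before SE and 1.74 and 1.58 CPM at 2 days (logFC 2.21, limma adjusted p = 0.058), and with a pseudocount of 0.5 it passed. Of 7 genes of endoplasmic reticulum chaperones and their regulator *Xbp1*, 1 was called at 2 days, *Sdf2l1* (logFC 1.12, limma adjusted p = 0.046), and with a pseudocount of 1 the counts for these chaperones and for the other receptors at 2 days were both 0.

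Markers of cell types also moved with the groups, beside 2.96% of all genes called against pre-SE mice at 6 h and 5.66% at 2 days. The summed level of 5 neuronal markers was 4760 to 5270 CPM before SE, 3530 to 4880 CPM at 6 h and 3040 to 3710 CPM at 2 days without LEV, and 0 of the 5 were called. The 5 microglial markers summed to 148 to 156 CPM, 68.6 to 79.1 CPM (2 called lower, *P2ry12* and *Tmem119*) and 274 to 289 CPM (1 called higher, *Aif1*), and the 5 astrocyte markers to 1930 to 2080, 1860 to 2220 and 3270 to 4740 CPM (2 called higher at 2 days, *Gfap* and *Aqp4*). Of the astrocyte markers, *Gfap* went from 245.62 and 230.22 CPM before SE to 2281.84 and 3642.11 CPM at 2 days. *Slc1a2* (1546.8 and 1484.23 to 786.25 and 808.71 CPM) and *Gja1* (236.48 and 164.47 to 86.88 and 115.3 CPM) were lower at 2 days without overlap. Of the microglial markers, *P2ry12* was lower at 2 days without overlap (41.45 and 26.88 to 18.06 and 16.91 CPM). Such lower values were found in 25.6% of all genes. The 5 endothelial markers summed to 57.4 to 62.9 CPM before SE and 110 to 170 CPM at 6 h, with *Cdh5* called. Against that sum, *Tek* was lower at 6 h without overlap (3.17 and 2.96 to 2.41 and 1.71 CPM), as 31.3% of all genes were. The 4 listed markers of monocytes and neutrophils summed to 5.66 to 6.07 CPM before SE and 33.8 to 73.0 CPM at 2 days. Of these, *Lyz2* and *Ms4a7* were called, while *Ccr2*, *Ly6c2* and *Ly6g* were not among the listed genes. In SE + LEV 6 h mice the neuronal sum was 3740 to 4770 CPM, which overlapped the SE 6 h mice, and the microglial sum (95.4 to 120 CPM) and the sum of 5 principal cell markers (at least 558 CPM, against at most 552 CPM) were above them without overlap. In SE + LEV 2 days mice the neuronal sum (3110 to 3130 CPM) overlapped the SE 2 days mice. The microglial sum (340 to 347 CPM) and the oligodendrocyte sum (2730 to 4000 CPM) were above them without overlap. The principal cell sum (529 to 572 CPM, against 573 to 588 CPM) was narrowly below them. Of the 5 principal cell markers, 2 had higher and 3 lower estimates in that comparison (median logFC −0.01). Only 1 was lower without overlap, beside 12.2% of all genes. The 4 oligodendrocyte markers summed to 4150 to 4740 CPM before SE, 2890 to 5670 CPM at 6 h and 1530 to 2310 CPM at 2 days without LEV, with 0 called. The part of these cell types in the Nr4a values was not tested.

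The dissected tissue also varied between mice of the same group. *Ttr*, the defining marker of choroid plexus, measured 5.83 and 1667.87 CPM in replicates 1 and 2 before SE, and 4.33 and 3935.71 CPM at 6 h. *Nr4a1* and *Nr4a3* were higher in the SE 6 h mouse with 4.33 CPM of *Ttr*, and *Nr4a2* in the mouse with 3935.71 CPM. With LEV, *Ttr* measured 843.42 and 29.98 CPM at 6 h and 1475.0 and 18.89 CPM at 2 days, and in both groups replicate 1 had the higher value of *Ttr* and of each Nr4a gene. It measured 55.59 and 13.52 CPM at 2 days without LEV, and its part in the Nr4a values was not tested. Of 5 principal cell markers of the hippocampus, 0 were called at 6 h or 2 days, with sums of 767 to 913 CPM before SE and 525 to 552 CPM at 6 h, and of 6 neocortical and thalamic markers, 1 was called higher at 6 h (*Fezf2*, logFC 1.12), with sums of 133 to 137 CPM and 168 to 212 CPM. *Fezf2* went from 48.49 and 49.83 to 91.38 and 124.57 CPM, while 3 of the 6 estimates were higher and 3 lower (median logFC 0.0). *Tbr1* was lower without overlap (25.9 and 24.02 to 17.1 and 14.8 CPM). Of the principal cell markers, 3 were lower and 2, *Prox1* and *Zbtb20*, higher at 6 h without overlap (31.3% and 18.6% of all genes).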

How the data were processed

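CAGE libraries of whole hippocampi from 10 mice, 2 in each of 5 groups, were used. Per the labels and the study's methods, the authors mapped tags to mm9 with BWA 0.7.17 and the rest with HISAT2 2.0.5, formed tag clusters with RECLU without those under 0.1 CPM, compared replicates with bedtools 2.12.0 and tested genes with edgeR 3.22.5. The deposited table holds CPM per gene and mouse. How clusters were summed to genes, and whether strand was used, is not given in the sources used here, nor is a sequencing batch or date. In all 10 libraries, 100% of the values were a whole number of tags within 0.005 CPM, the rounding of the table, and the tags so recovered were used for edgeR and DESeq2.

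Genes that reached 0.1 CPM in 2 or more libraries were tested on log2(CPM + 0.1) with limma 3.58.1 in R 4.3.3 (5 group means, mean-variance trend, two-sided, Benjamini-Hochberg adjustment over 15851 genes). Fold changes on this scale understate changes of low genes. The scripts were tested on simulated data. Exact permutation tests were two-sided. Alternatives were pseudocounts of 0.01, 0.5 and 1, no filter, a filter of 1 CPM, median-of-ratios rescaling, the replicate number as a block, no trend, a fit limited to the groups compared, each mouse left out, DESeq2 1.42.0 and the quasi-likelihood test of edgeR 4.0.16. Python 3.11.15, pandas 2.3.3, numpy 2.4.6, SciPy 1.17.1 and matplotlib 3.10.9 were used.

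The members and gene lists were chosen with earlier results of these data known. Besides the members, up to 4 called genes per list with the largest logFC against pre-SE mice were named, or the gene with the largest difference where none was called, and the 5 genes nearest to each member, of which 1 item is not reported here. Of the markers, called genes were named. *Slc1a2*, *Gja1*, *P2ry12* at 2 days, *Tek*, *Tbr1*, *Prox1* and *Zbtb20* were added after their values were seen, because they went against the sum of their list. *Egr1*, *Per1*, *Zfp184* and *Magoh* values beyond this rule, and *Ttr*, were chosen after their values were seen. Promoter windows are from RefSeq (GRCm38.p6), where all 3 members matched.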

Additional observations from a re-analysis of the deposited data

Results flagged for a closer look

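1 result was marked because the effect of SE differed between the 2 times by a test of the difference itself. The effect of SE on *Nr4a2* against pre-SE mice was 2.77 at 6 h and −0.09 at 2 days, and the difference of −2.86 on the log2(CPM + 0.1) scale, which is that between SE 2 days and SE 6 h mice, had a limma adjusted p of 0.017. The 2 groups are different animals and did not overlap, which held for lower values in 20.1% of all genes. Neither *Nr4a1* (−1.03, adjusted p = 0.39, limma) nor *Nr4a3* (−2.09, adjusted p = 0.067, limma) passed this test. Over mice with and without LEV, the log2 ratio of *Nr4a1* to *Nr4a2* was 1.11 higher at 2 days than at 6 h, with an exact permutation p of 0.22.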

How the results depend on the processing

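Of 693 values of the 3 genes (11 comparisons under 21 alternatives), 646 kept their direction and their side of the threshold, 22 fell short of it, 13 passed it and 12 changed direction. The number of Nr4a genes called at 2 days against pre-SE went from 1 to 0 without the trend and with edgeR. DESeq2 called 1 gene in SE + LEV 6 h against SE 6 h mice, 1 in SE + LEV 2 days against SE + LEV 6 h mice and 1 for the LEV effect averaged over times, where limma called 0. SE 2 days against SE 6 h mice gave 2 genes with DESeq2 and in the fit of only those groups, instead of 1, and the averaged time effect gave 1 instead of 2 without the trend. Leaving out each mouse gave 0 to 3 genes at 6 h against pre-SE, 0 to 1 at 2 days against pre-SE, 0 to 2 for SE 2 days against SE 6 h, 0 to 1 for SE + LEV 2 days against SE + LEV 6 h, 0 to 1 for the averaged LEV effect and 1 to 2 for the averaged time effect. All 12 changes of direction came from leaving out 1 mouse, and all concerned values that were not called. *Nr4a2* at 2 days against pre-SE ranged from −0.72 to 0.54 (without pre-SE replicates 1 and 2) and was 0.21 without SE 2 days replicate 2. In SE + LEV 2 days mice it ranged from −0.93 to 0.33 against pre-SE (without pre-SE replicates 1 and 2) and from −0.51 to 0.09 against SE 2 days (without SE 2 days replicates 2 and 1). *Nr4a3* in SE + LEV 6 h mice ranged from −0.83 to 1.36 against pre-SE (without SE + LEV 6 h replicates 1 and 2), and its change from SE + LEV 6 h to 2 days from −2.17 to 0.03 (without replicates 2 and 1). *Nr4a1* in SE + LEV 2 days against pre-SE ranged from −0.32 to 1.28 (without SE + LEV 2 days replicates 1 and 2). The change of the LEV effect between times ranged from −0.66 to 0.94 for *Nr4a1* (without SE + LEV 2 days replicates 1 and 2), and was −0.52, −0.50 and −0.14 without SE 6 h replicate 1, SE + LEV 6 h replicate 2 and SE 2 days replicate 1. For *Nr4a3* it ranged from −0.08 to 2.12 (without SE + LEV 6 h replicates 2 and 1). A lone mouse left in a group was assumed to vary like the other groups. Same-numbered mice are different animals, and their deviations correlated at −0.44 to 0.34, over 0.1 in 3 of 10 pairs of groups. With 2 mice a group, these correlations can neither show nor exclude a batch shared by a replicate number. With the replicate number as a block, 2 genes were called at 6 h, 1 at 2 days, 1 for SE 2 days against SE 6 h and 2 for the averaged time effect, and over all genes 402 instead of 469 were called at 6 h. Each value of the 3 genes rested on at least 320 tags, which bounds their counting error only, and other effects of depth were not tested.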
